A study of Mus musculus with 16 samples.

Results

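The genes described here center on the machinery that moves the ribosome along an mRNA, namely the elongation factor genes Eef1a1, Eef1b2, Eef1d, Eef1g and Eef2. With them go Eef1e1, which shares their naming, the eEF2 kinase gene Eef2k and the poly(A)-binding protein gene Pabpc1. These 8 members were taken by symbol from 24946 named genes, and all 8 were present and passed the filter on low values in both tables. Cultures of neural stem cells (NSCs) were started from neonatal mice and grown with FGF and EGF. The tissue was the ventricular-subventricular zone (V-SVZ), a layer along the wall of the lateral ventricle in which such cells reside. In all, 4 groups of 4 libraries were compared, namely total RNA of Tsc2 mut/mut cultures, polyribosomal RNA of Tsc2 mut/mut cultures, total RNA of Tsc2 wt/wt cultures and polyribosomal RNA of Tsc2 wt/wt cultures. Each of 8 cultures gave 1 library of either kind, so there were 16 libraries. In mut/mut pups conditional Tsc2 alleles were recombined with Nestin-CRE-ERT2, a Cre that the Nestin promoter drives and tamoxifen switches on, beside a red fluorescent Cre reporter, and the zone was dissected a week after injection. The sources do not settle if wt/wt pups had Cre as well, and recombination is restricted to cells in which that promoter was active. Cultures of both genotypes received cycloheximide for 15 minutes before lysis. Which animal, litter or sex a culture came from is not given, so the tests cover only the spread among these cultures.

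Elongation begins when eEF1A, bound to GTP, brings an aminoacyl-tRNA to the ribosome. The eEF1B complex, made of the products of Eef1b2, Eef1d and Eef1g with an associated valyl-tRNA synthetase, recharges eEF1A with GTP, and eEF2 then moves the ribosome along by a codon. The eEF2 kinase phosphorylates eEF2 and slows it, and mTORC1, the growth-promoting kinase complex that the Tsc2 product tuberin restrains, is known to hold that kinase in check. The mRNAs of most of these factors and of Pabpc1 belong to the terminal oligopyrimidine (TOP) class, which starts with a C followed by a run of pyrimidines and whose translation depends on mTORC1 in many cell types.

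RefSeq promoter entries of build GRCm38.p6 were matched for 5 of the 8 members, Eef1a1, Eef1b2, Eef1e1, Eef2 and Eef2k. Each stretch below holds the 40 bases before the annotated start and the first 30 transcribed bases, 5′ to 3′ on the transcribed strand, because the start of the transcript defines the TOP class. Capitals mark the longest run of C and T within the first 30 transcribed bases and any TATAAA or TATATAA on that strand.
Eef2: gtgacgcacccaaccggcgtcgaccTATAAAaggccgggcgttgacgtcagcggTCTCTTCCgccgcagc
Eef1a1: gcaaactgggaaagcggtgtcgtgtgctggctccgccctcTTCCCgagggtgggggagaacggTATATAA
Eef1b2: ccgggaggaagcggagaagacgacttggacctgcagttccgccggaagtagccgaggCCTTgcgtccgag
Eef1e1: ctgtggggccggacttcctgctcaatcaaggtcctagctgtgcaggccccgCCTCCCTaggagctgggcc
Eef2k: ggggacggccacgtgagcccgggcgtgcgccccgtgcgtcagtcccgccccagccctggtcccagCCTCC
The stretches lie at chr10:81176591-81176660 (plus strand) for Eef2, chr9:78481695-78481764 (minus) for Eef1a1, chr1:63176791-63176860 (plus) for Eef1b2, chr13:38658999-38659068 (minus) for Eef1e1 and chr7:120842791-120842860 (plus) for Eef2k, for which the first of 3 listed starts is shown.

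Within the first 30 transcribed bases, the longest run was that of Eef2, with 8 pyrimidines at bases 15 to 22 after the annotated start. The run of Eef1a1, at bases 1 to 5, was cut by this window. It continued without a break into the letters ccctc before the start, and with them was longer than that of Eef2. The run of Eef2k reached base 30, the last one shown. Of 32851 RefSeq promoters, 10.1% held a run of at least 8 in the first 30 transcribed bases. Eef1e1 had a run of 7 at bases 12 to 18, a length reached in 16.3% of promoters, and the runs of the other 3 stretches were of 4 or 5. TATAAA began 15 bases before the annotated start of Eef2, and TATATAA began at base 24 after that of Eef1a1. In the full windows of 300 bases, searched on both strands, TATAAA occurred in 13.6% of all promoters and TATATAA in 3.24%. The letters CTCTTCC, which overlap the Eef2 run, began at base 16 in Eef2 and 3 bases before the start in Eef1a1, and occurred in 11.2% of promoters on either strand. Annotated starts need not be the starts used in these cells, and these matches only describe the letters.

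The deposited values are reads per gene divided by normalization factors of the authors, called normalized reads here, and they were normalized separately for total and polyribosomal RNA. They summed to between 65.6 and 73.7 M per library in total RNA and between 87.4 and 100.5 M in polyribosomal RNA. The commonest step of low values, taken as the worth of 1 read, gave depths of about 24.7 to 138.5 M and 52.2 to 264.8 M reads. These depths are rough, since the value of 1 read differed between genes. Tsc2 itself lay between 5592 and 7076 in mut/mut total RNA, against 6232 to 7836 in wt/wt (log2 change -0.10, limma adjusted p = 0.422). In polyribosomal RNA Tsc2 lay between 5956 and 9339 in mut/mut, against 10505 to 13165 in wt/wt (log2 change -0.49, limma adjusted p = 0.0389). These reads were summed over the whole gene, so a partial deletion need not lower them. All 10 NSC markers (Nes and Sox2 among them) were detected, with summed levels of 768213 to 853847 in mut/mut total RNA and 745386 to 884383 in wt/wt. Vim alone held 362266 to 410875 of the mut/mut sums and 310393 to 406902 of the wt/wt sums. Of the 10, 1 was lower and 2 were higher in mut/mut total RNA, and 2 were lower and 0 higher in polyribosomal RNA. All 12 S phase genes were lower in mut/mut total RNA, where their sum ranged over 85366 to 178563 against 190263 to 234408 in wt/wt, and all 7 oligodendrocyte genes were higher, with sums of 18119 to 24910 against 8934 to 10508. Of 10 microglial genes 2 were higher in mut/mut total RNA, with sums of 2807 to 19265 against 2577 to 4308. Of all genes tested in total RNA, 20.7% were lower and 19.7% higher, so this count is near the share of all genes. In polyribosomal RNA 0 of 9 tested microglial genes were called, with sums of 491 to 6580 against 929 to 2429. Of the choroid plexus genes tested, 3 of 4 were higher in mut/mut total RNA (sums of 341 to 3237, against 157 to 255 in wt/wt) and 4 of 4 in polyribosomal RNA (135 to 890, against 60.3 to 87.7). Summed levels of 4 Y-linked genes were 4775, 48.6, 16.4 and 6.57 in mut/mut cultures 1 to 4, against 4203, 4967, 5802 and 258 in wt/wt cultures, so their level went unevenly with genotype. With that level as a covariate Eef1b2, Eef1d, Eef1g and Eef1e1 kept their call in total RNA (limma adjusted p = 0.0431 to 0.0457), Eef1a1, Pabpc1 and Eef2k lost it (0.120 to 0.127), and the 6 members called in polyribosomal RNA had limma adjusted p of 0.0734 to 0.154. No marker was at 0 in every library. The part of these differences in the results below was not tested, and in bulk samples a shift in the kinds of cells cannot be told apart from a change of RNA per cell.

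The first comparison asked how the mRNA levels of the elongation machinery differed in Tsc2 mut/mut NSCs. In total RNA, Eef1a1, all 3 eEF1B subunit genes, Eef1e1 and Pabpc1 were lower in mut/mut cultures, Eef2k was higher and Eef2 did not pass the test. So 6 of 8 members fell and 1 rose, where 20.7% of all genes tested were lower and 19.7% higher (limma, adjusted p under 0.05). The median log2 change of the 8 was -0.38, beside 0.01 for all 14967 genes tested. The falls ranged from 0.29 to 0.89 on the log2 scale, and none of these 6 genes overlapped between genotypes. Of all genes tested, 20.3% lay lower and 17.8% higher in mut/mut with no overlap.

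**Figure D1:**
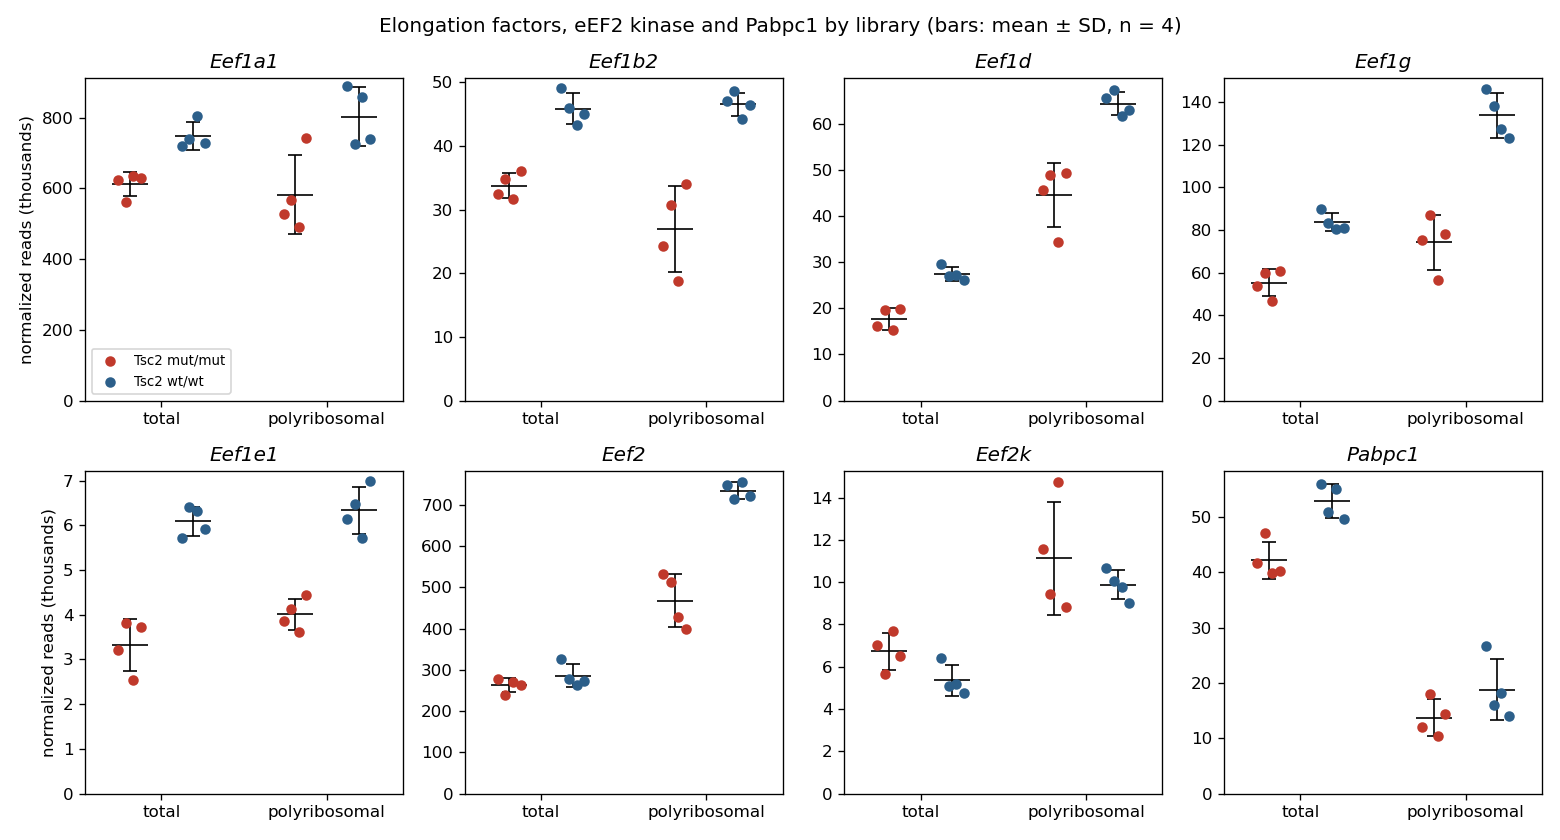
Normalized reads (linear axes from 0, shown in kilo-reads) of each member in total and polyribosomal RNA, 1 point per library, red for Tsc2 mut/mut and blue for Tsc2 wt/wt, with the mean and SD of 4 libraries as black bars. For Eef2 the genotypes overlapped in total RNA, whereas in polyribosomal RNA the mutant libraries lay between 398566 and 532982 and the wild-type libraries between 714628 and 755541.

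Eef1a1 (chromosome 9, 78478453 to 78481724, minus strand), which encodes the main eEF1A isoform, had the second highest level of all genes in the total RNA table. It had 622623, 561983, 634292 and 628704 normalized reads in mut/mut cultures 1 to 4, against 719420, 740031, 804660 and 728155 in wt/wt. All mut/mut libraries were below all wt/wt libraries, and Eef1a1 fell by 0.29 ± 0.08 on the log2 scale (SE, 95% interval -0.46 to -0.12, limma adjusted p = 0.0147). Scaled to the column total the change was -0.19 (limma adjusted p = 0.0559) and after quantile normalization -0.11 (limma adjusted p = 0.140), so its call in total RNA depended on the scaling. Eef1a1 has closely similar copies elsewhere in the genome, and how reads that match several places were counted is not given.

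The 3 subunit genes of the eEF1B exchange complex fell more than Eef1a1 on the point estimates, a difference that was not tested. Eef1b2 (chromosome 1, 63176831 to 63180486, plus strand), the catalytic alpha subunit in the older naming of eEF1B, had 32489, 34808, 31699 and 35996 normalized reads in mut/mut total RNA, against 49081, 45917, 43227 and 45072 in wt/wt. Its log2 change was -0.44 ± 0.08 (limma adjusted p = 0.00379), with every mut/mut library lower. Eef1d (chromosome 15, 75894796 to 75909784, minus strand), the other exchange subunit, had 16184, 19683, 15332 and 19844 against 29731, 27071, 27247 and 26127, a change of -0.64 ± 0.10 (limma adjusted p = 0.00303). Eef1g (chromosome 19, 8967041 to 8978180, plus strand), the structural subunit, had 53982, 59922, 46886 and 60616 against 89822, 83123, 80714 and 81006, a change of -0.60 ± 0.10 (limma adjusted p = 0.00303). In both, mut/mut cultures 1 and 3 stood below mut/mut cultures 2 and 4. The summed microglial markers of total RNA were 4479, 19265, 2807 and 10952 in mut/mut cultures 1 to 4. The summed S phase genes were 117844, 178563, 85366 and 152525 in the same cultures, so both sums split them in this way. The part of either in the Eef1d and Eef1g values was not tested. Without mut/mut cultures 2 and 4 the changes were -0.80 for Eef1d and -0.73 for Eef1g. Without mut/mut cultures 1 and 3 the change of Eef1d was smaller, at -0.48. Both genes kept their call under all 11 alternative settings, with changes of -0.80 to -0.48 for Eef1d and -0.73 to -0.38 for Eef1g. Part of Eef1b2 overlaps Ndufs1 on the other strand, and strand was not recorded by the library kit, which leaves reads there uncertain. Part of Eef1d overlaps Naprt on the same strand, where reads are uncertain as well.

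Eef1e1 (chromosome 13, 38645691 to 38659028, minus strand) had the largest change in total RNA of the 8 members. Its product, also called AIMP3, is an auxiliary protein of the multisynthetase complex that holds several aminoacyl-tRNA synthetases rather than an elongation factor in the strict sense. It had 3216, 3810, 2531 and 3721 normalized reads in mut/mut cultures, against 5728, 6420, 6315 and 5922 in wt/wt. The log2 change was -0.89 ± 0.13 (limma adjusted p = 0.00257), and the mut/mut mean was 54.5% of the wt/wt mean. Only 2.06% of all genes tested had a lower or equal log2 change.

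Eef2 (chromosome 10, 81176631 to 81182509, plus strand) had the seventh highest level in total RNA. It had 277621, 239690, 271302 and 263594 normalized reads in mut/mut, against 326403, 277727, 263964 and 273491 in wt/wt. The groups overlapped, and the log2 change of -0.11 ± 0.09 had a 95% interval of -0.31 to 0.09 (limma adjusted p = 0.323), so a fall of the size seen for the eEF1B genes lay outside that interval. No alternative setting gave a call for Eef2 in total RNA.

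Eef2k (chromosome 7, 120842642 to 120907219, plus strand) was the 1 member that was higher in mut/mut total RNA. It had 7030, 5647, 7680 and 6522 normalized reads in mut/mut cultures and 6390, 5085, 5173 and 4758 in wt/wt cultures. The groups overlapped, since wt/wt culture 1 was above mut/mut culture 2, and the log2 change was 0.33 ± 0.12 (limma adjusted p = 0.0488). The call stood at the edge of the threshold. It was lost without any of mut/mut cultures 1, 3 and 4 or wt/wt cultures 2, 3 and 4 (limma adjusted p = 0.102 to 0.125 for 5 of them and 0.0772 without mut/mut culture 4). Without mut/mut cultures 1 and 3 together the log2 change was 0.19, which was not called (limma adjusted p = 0.337). The call was also lost without a filter on low values (limma adjusted p = 0.0651) and without variance trend and robust moderation (0.0758). Part of Eef2k overlaps Gm15774 on the other strand, so reads there are uncertain too.

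Pabpc1 (chromosome 15, 36595658 to 36609581, minus strand) encodes the main cytoplasmic protein that coats poly(A) tails. It had 41641, 47079, 39831 and 40265 normalized reads in mut/mut, against 55911, 50908, 55143 and 49663 in wt/wt. All mut/mut libraries were lower, and the log2 change was -0.33 ± 0.08 (limma adjusted p = 0.0130). The call was lost after quantile normalization (log2 change -0.15, limma adjusted p = 0.170) and without mut/mut cultures 1 and 3 (log2 change -0.28, limma adjusted p = 0.0767).

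Per kilobase of transcript the members covered a wide range of levels in total RNA. Eef1a1 stood at 341082 ± 18739 normalized reads per kb in mut/mut and 416982 ± 21551 in wt/wt (SD, n = 4 each), and Eef2 followed at 85158 ± 5373 in mut/mut and 92391 ± 9044 in wt/wt. The eEF1B subunits were not at equal levels. Eef1g had 29695 ± 3423 per kb in mut/mut and 44885 ± 2276 in wt/wt, Eef1b2 25762 ± 1524 and 34980 ± 1866, and Eef1d 10936 ± 1441 and 16960 ± 948, so the order of the subunits was the same in both genotypes. Pabpc1 had 14982 ± 1186 in mut/mut and 18781 ± 1095 in wt/wt. Eef2k and Eef1e1 were the lowest members, at 2205 ± 282 and 1300 ± 230 per kb in mut/mut, against 1756 ± 235 and 2388 ± 128 in wt/wt. Their order was thus Eef2k above Eef1e1 in mut/mut means and the reverse in wt/wt means.

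The next comparison asked how the same mRNAs differed on polyribosomes, the heavy part of a sucrose gradient in which transcripts carry several ribosomes. Eef1a1, Eef1b2, Eef1d, Eef1g, Eef1e1 and now also Eef2 were lower in mut/mut polyribosomal RNA. Neither Eef2k nor Pabpc1 passed the test. So 6 of 8 members fell and 0 rose (limma, 0 also at an unadjusted p under 0.05), where 11.9% of all genes tested were lower and 11.7% higher. The median log2 change of the 8 was -0.60, beside 0.01 for all 14412 genes tested.

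Eef2 had 532982, 512185, 427581 and 398566 normalized reads in mut/mut polyribosomal RNA, against 747711, 714628, 755541 and 721623 in wt/wt. No mut/mut library reached the lowest wt/wt library, and the log2 change was -0.66 ± 0.11 (95% interval -0.89 to -0.43, limma adjusted p = 0.00322). The wt/wt libraries were close to each other, with an SD of 2.70% of their mean, against 13.9% in mut/mut. Among mut/mut cultures 1 and 2 were the highest for Eef2.

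The eEF1B genes fell in polyribosomal RNA too. Eef1b2 had 24273, 30718, 18750 and 34012 normalized reads in mut/mut, against 46999, 48565, 44215 and 46403 in wt/wt (log2 change -0.82 ± 0.16, limma adjusted p = 0.00636). Eef1g had 75384, 86888, 56459 and 78306 in mut/mut, against 146211, 138272, 127517 and 123143 in wt/wt (log2 change -0.86 ± 0.13, limma adjusted p = 0.00271). Eef1d had 45634, 48899, 34492 and 49336 in mut/mut, against 65738, 67337, 61671 and 63132 in wt/wt (log2 change -0.55 ± 0.13, limma adjusted p = 0.0116). None of the 3 genes overlapped between genotypes, where 14.6% of all genes tested lay lower and 13.3% higher in mut/mut with no overlap, and mut/mut culture 3 was the lowest library for each of them. The call of Eef1d was lost after quantile normalization (log2 change -0.38, limma adjusted p = 0.0526). Mut/mut culture 3 was the lowest mut/mut library for 6 of the 8 members in polyribosomal RNA and for 5 of 8 in total RNA, and it also had the lowest sum of S phase genes in both fractions (85366 in total RNA and 222290 in polyribosomal RNA) and the highest sum of choroid plexus genes in total RNA (3237, with Ttr at 2281). The part of this in the results was not tested.

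Eef1e1 had 3861, 4119, 3610 and 4436 normalized reads in mut/mut polyribosomal RNA, against 6147, 6483, 5724 and 6986 in wt/wt. The genotypes did not overlap, and the log2 change was -0.66 ± 0.12 (limma adjusted p = 0.00466). Eef1a1 had 526244, 568448, 491018 and 742761 in mut/mut, against 889987, 724575, 857782 and 740433 in wt/wt. Here mut/mut culture 4 stood above wt/wt cultures 2 and 4, so the groups overlapped, and the log2 change was -0.48 ± 0.13 (limma adjusted p = 0.0226). That call was lost without mut/mut culture 1 (limma adjusted p = 0.0614), without wt/wt culture 1 (0.0705) or 3 (0.0663), without mut/mut cultures 1 and 3 (0.143), under scaling to the column total (0.0807), under quantile normalization (0.0996) and without variance trend and robust moderation (0.0593).

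Eef2k had 11578, 9432, 14732 and 8812 normalized reads in mut/mut polyribosomal RNA and 10686, 10044, 9749 and 9032 in wt/wt. The mut/mut libraries lay on both sides of the wt/wt range, and the log2 change of 0.15 ± 0.16 had an interval of -0.19 to 0.49 (limma adjusted p = 0.521). Pabpc1 had 12047, 18040, 10334 and 14353 in mut/mut and 26663, 16082, 18233 and 14083 in wt/wt. It varied more among wt/wt libraries than any other member, with an SD of 29.5% of the mean, and the log2 change of -0.44 ± 0.21 did not pass the test (interval -0.90 to 0.01, limma adjusted p = 0.138). Without mut/mut cultures 2 and 4 both genes passed, Pabpc1 at -0.71 (limma adjusted p = 0.0328) and Eef2k at 0.41 (limma adjusted p = 0.0318), and without mut/mut cultures 1 and 3 neither did, with Eef2k at -0.11.

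**Figure D2:**
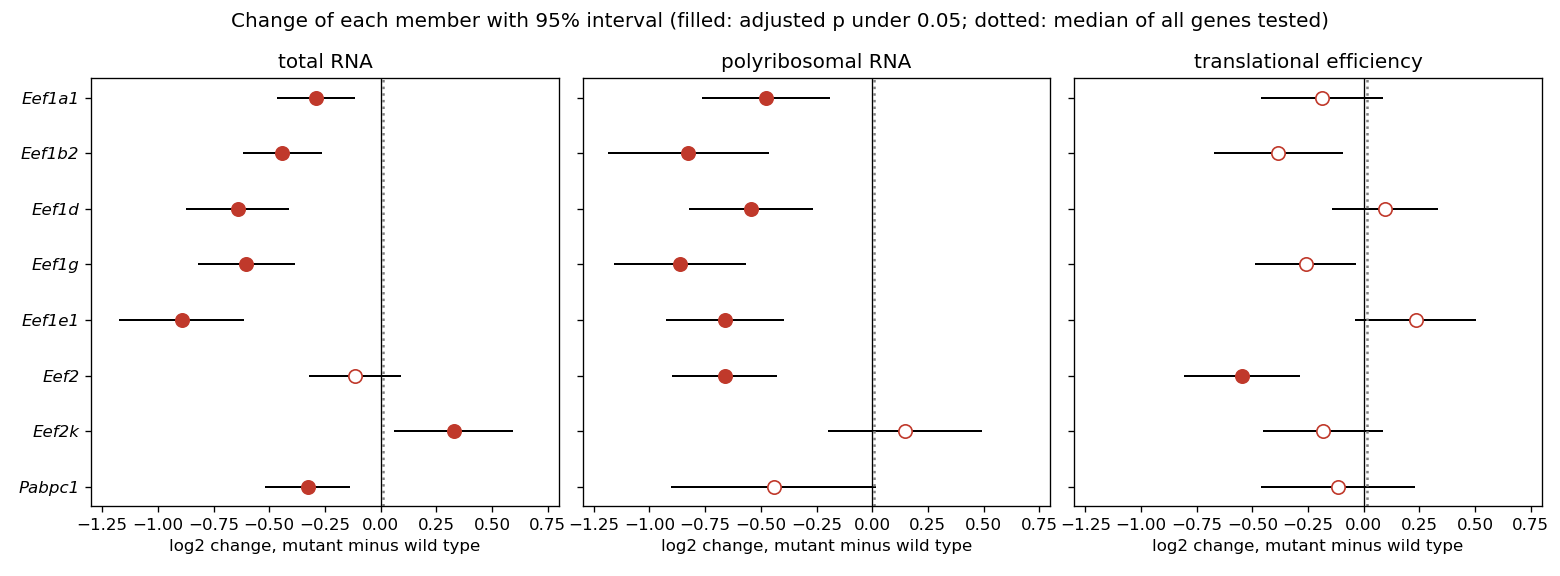
Log2 change of each member, mutant minus wild type, with its 95% interval from limma, in total RNA, polyribosomal RNA and translational efficiency. Filled points passed an adjusted p of 0.05, the solid line is 0 and the dotted line is the median of all genes tested. Eef2 is open in total RNA (-0.11) and filled in polyribosomal RNA (-0.66) and translational efficiency (-0.55).

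The levels of the kinase gene and its substrate gene were set side by side within each library, as a description. The log2 difference Eef2k minus Eef2 ranged over -5.41 to -5.14 in mut/mut total RNA and -5.85 to -5.67 in wt/wt total RNA. In polyribosomal RNA it ranged over -5.76 to -4.86 in mut/mut and -6.32 to -6.13 in wt/wt. Thus Eef2k reads were 2.55% ± 0.20 of Eef2 reads in mut/mut total RNA, against 1.87% ± 0.11 in wt/wt (SD, n = 4 each), and 2.42% ± 0.70 in mut/mut polyribosomal RNA, against 1.34% ± 0.09 in wt/wt. The ranges did not overlap in either fraction. Of all single genes tested in total RNA, 20.3% lay lower and 17.8% higher in mut/mut with no overlap. In polyribosomal RNA these shares were 14.6% and 13.3%. How often the ratios of other gene pairs separate the genotypes was not computed. In polyribosomal RNA the genotypes did not overlap for Eef2 alone, whereas for Eef2k they did. The 8 members together took up 1.51% ± 0.08 of all normalized reads in mut/mut total RNA and 1.71% ± 0.05 in wt/wt. In polyribosomal RNA they took up 1.35% ± 0.16 in mut/mut and 1.84% ± 0.11 in wt/wt.

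Translational efficiency, the polyribosomal level of a gene relative to its total RNA level in the same culture, was compared between genotypes in 1 model. Of the 8 members only Eef2 passed the test, and it was lower in mut/mut cultures. So 1 of 8 members was lower and 0 higher (limma, 0 higher also at an unadjusted p under 0.05), where 7.89% of all genes tested were lower and 5.07% higher, so the count alone does not set the members apart. At an unadjusted p under 0.05 Eef1b2 and Eef1g were lower too (limma unadjusted p = 0.0114 and 0.0231). That level was reached by 4246 of all 14333 genes tested, in either direction. The median log2 change of the 8 was -0.18, beside 0.01 for all 14333 genes tested.

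With the median gene of each culture set to 0, the log2 ratio of polyribosomal to total RNA of Eef2 was 1.14, 1.28, 0.88 and 0.84 in mut/mut cultures 1 to 4, against 1.42, 1.53, 1.68 and 1.59 in wt/wt. All mut/mut cultures were below all wt/wt cultures, as for 10.4% of all genes tested, while 8.7% lay the other way with no overlap. The change in translational efficiency was -0.55 ± 0.12 (95% interval -0.80 to -0.29, limma adjusted p = 0.0113), and 8.04% of all genes tested had a lower or equal change. The mean ratio of Eef2 was at the 83.7th percentile of all genes in mut/mut and at the 95.4th in wt/wt. Leaving out any 1 culture gave -0.64 to -0.47, with the call kept (limma adjusted p = 0.00215 to 0.0417). The call was lost without variance trend and robust moderation (limma adjusted p = 0.0593), without mut/mut cultures 1 and 3 (0.103), without the culture block (0.174) and with the level of Y-linked genes as a covariate (-0.43, limma adjusted p = 0.207). Under each of these 4 settings limma called 0 genes of the whole table, with 2214 to 3980 at an unadjusted p under 0.05.

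**Figure D3:**
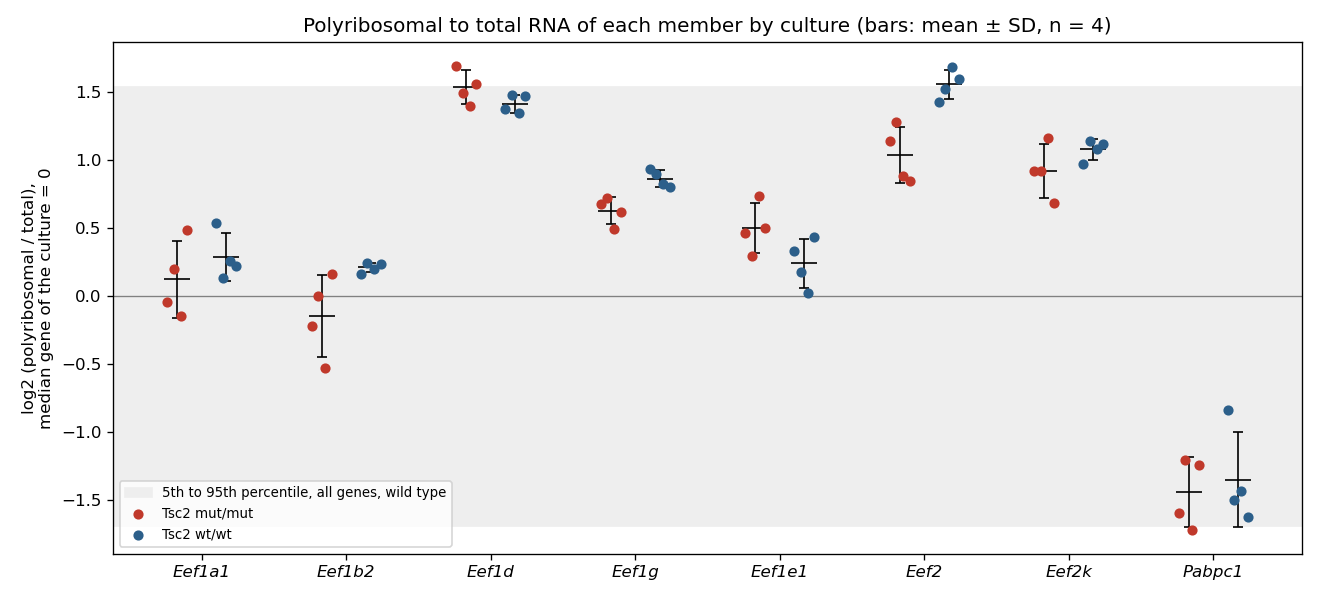
Log2 ratio of polyribosomal to total RNA per culture, with the median gene of that culture set to 0, for each member in Tsc2 mut/mut (red, left) and Tsc2 wt/wt cultures (blue, right), with the mean and SD of 4 cultures. The grey band spans the 5th to 95th percentile of all genes in wild-type cultures. Eef2 lay between 0.84 and 1.28 in mutant and between 1.42 and 1.68 in wild-type cultures, and Pabpc1 lay near the lower end of the band in both.

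For the other members the change in efficiency did not pass the test. Eef1b2 had centred ratios of -0.22, 0.0021, -0.53 and 0.17 in mut/mut cultures and of 0.17, 0.24, 0.20 and 0.24 in wt/wt cultures. Its change was -0.38 ± 0.14 (95% interval -0.67 to -0.10, limma adjusted p = 0.0699), and it passed without mut/mut culture 4 (-0.48, limma adjusted p = 0.0345) or wt/wt culture 1 (-0.41, limma adjusted p = 0.0370). Without mut/mut cultures 2 and 4 both Eef1b2 (-0.61, limma adjusted p = 0.0175) and Eef1a1 (-0.40, limma adjusted p = 0.0401) passed. Eef1g had ratios of 0.68, 0.72, 0.49 and 0.62 in mut/mut and of 0.93, 0.90, 0.82 and 0.80 in wt/wt. These did not overlap, but the change of -0.26 ± 0.10 had a limma adjusted p of 0.107. The changes of the remaining members were -0.19 for Eef1a1 (interval -0.46 to 0.08), 0.10 for Eef1d (-0.14 to 0.33), 0.23 for Eef1e1 (-0.03 to 0.50), -0.18 for Eef2k (-0.45 to 0.08) and -0.12 for Pabpc1 (-0.46 to 0.22).

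The members also differed from each other in where they stood among all genes, which is a description since it crosses 2 separately normalized tables. Eef1d was at 1.54 ± 0.13 in mut/mut and 1.42 ± 0.07 in wt/wt (SD, n = 4 each), at the 94.6th and 92.3rd percentile of all genes. Eef2k was at 0.92 ± 0.20 in mut/mut and 1.08 ± 0.08 in wt/wt. Pabpc1 had the lowest ratio of the 8, at -1.44 ± 0.26 in mut/mut and -1.35 ± 0.35 in wt/wt, at the 7.92th and 9.56th percentile. So on the same scale Pabpc1 stood among the genes least represented on polyribosomes and Eef1d among the most, in cultures of either genotype. Eef2 was at the 95.4th percentile in wt/wt and at the 83.7th in mut/mut, where Eef2k was at the 80.3rd. Eef1a1, the most abundant member, was close to the median gene, at 0.13 ± 0.28 in mut/mut and 0.29 ± 0.17 in wt/wt.

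A wider set of 67 tested related genes on 7 lists was then counted in total RNA, of which 36 were lower and 5 higher in mut/mut, with a median log2 change of -0.38. In polyribosomal RNA 20 of 66 were lower and 1 higher (median -0.23), and in translational efficiency 5 of 66 were lower and 5 higher (median 0.06). The percentages of all genes called are those given above for the members. For comparison, 77 of 80 tested cytosolic ribosomal protein genes were lower in mut/mut total RNA and 50 of 80 in polyribosomal RNA, with medians of -0.57 and -0.46, while in translational efficiency 0 were lower and 10 higher (median 0.13).

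**Figure D4:**
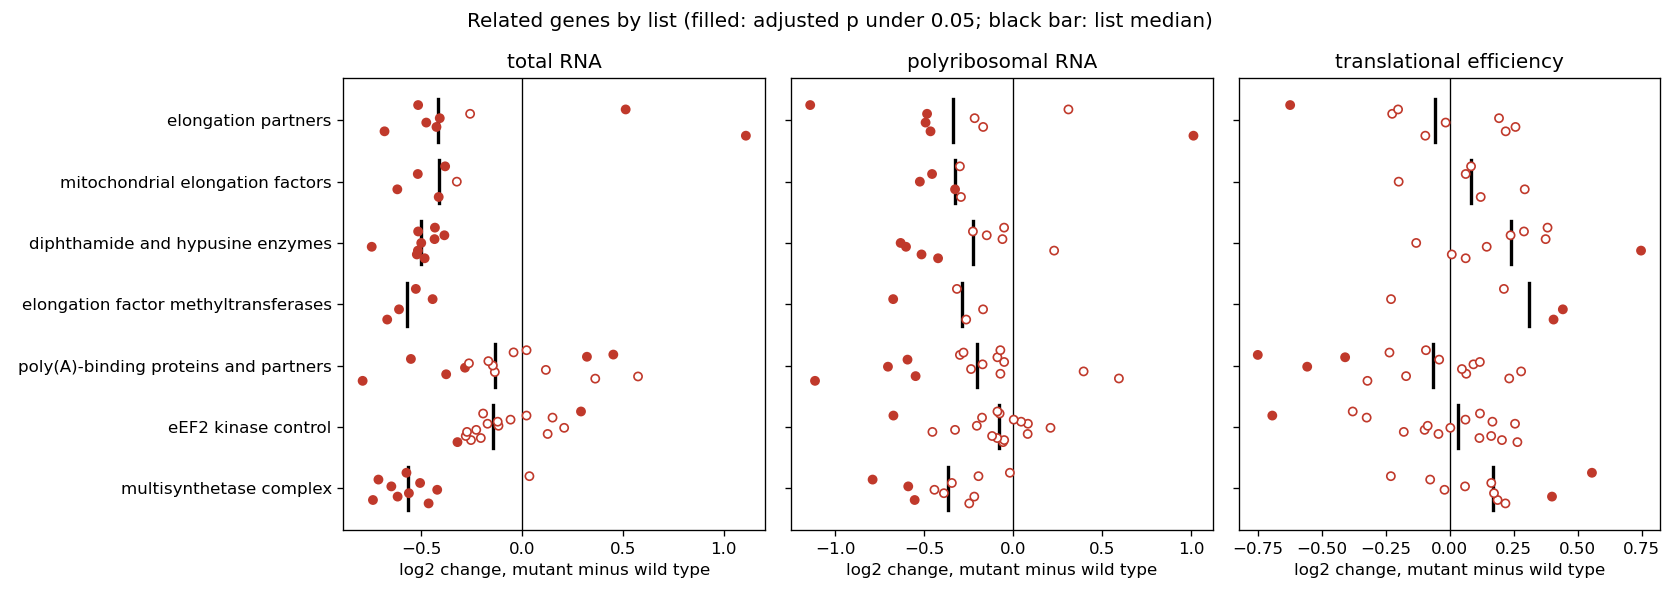
Log2 change, mutant minus wild type, of each tested related gene by list, in total RNA, polyribosomal RNA and translational efficiency. Filled points passed a limma adjusted p of 0.05 and black bars are list medians. In total RNA all 9 diphthamide and hypusine enzyme genes and 9 of 10 multisynthetase genes are filled on the lower side, whereas the genes of eEF2 kinase control lie on both sides of 0 with a median of -0.15.

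Of the elongation partners, 5 of 8 were lower and 2 higher in mut/mut total RNA. Eif5a, whose product helps the ribosome through difficult peptide bonds, had 77502 ± 15706 normalized reads in mut/mut and 122270 ± 3465 in wt/wt (log2 change -0.68 ± 0.14, limma adjusted p = 0.00566), and Eefsec, the selenocysteine elongation factor gene, fell by 0.48. Hbs1l, a ribosome rescue factor gene, fell by 0.41. Against these, Gtpbp2, another ribosome rescue gene, had 3707 ± 322 in mut/mut and 2607 ± 348 in wt/wt (log2 change 0.51 ± 0.11, limma adjusted p = 0.00691). Eef1a2, the eEF1A isoform of neurons and muscle, was named after its values were seen. It had 809 ± 290 in mut/mut and 372 ± 150 in wt/wt total RNA (log2 change 1.11 ± 0.36, limma adjusted p = 0.0316) and 1958 ± 662 against 932 ± 195 in polyribosomal RNA (1.01 ± 0.27, limma adjusted p = 0.0218), a direction opposite to that of Eef1a1. The summed level of 6 neuron markers ranged over 1010 to 2104 in mut/mut and 990 to 1091 in wt/wt total RNA, and its part in the Eef1a2 values was not tested.

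All 9 genes for diphthamide and hypusine, the modifications made on eEF2 and eIF5A, were lower in mut/mut total RNA, and 4 of 9 were lower in polyribosomal RNA. Dph5, a methyltransferase of the diphthamide pathway, fell by 0.75 in total RNA (limma adjusted p = 0.00380) and by 0.60 in polyribosomal RNA (limma adjusted p = 0.0188). Dph3, an electron carrier of the same pathway, had 3407 ± 318 normalized reads in mut/mut and 4871 ± 374 in wt/wt total RNA (limma adjusted p = 0.00379), whereas its polyribosomal levels were 2328 ± 331 and 2037 ± 552. In translational efficiency Dph3 was higher in mut/mut, with a log2 change of 0.75 ± 0.18 (limma adjusted p = 0.0151). Dph7 and Dhps, the deoxyhypusine synthase gene, fell by 0.43 and 0.52 in total RNA.

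All 4 tested elongation factor methyltransferase genes were lower in mut/mut total RNA, and 1 was lower in polyribosomal RNA. Eef1akmt1 and Eef1akmt2, which methylate lysines of eEF1A, fell by 0.67 and 0.61 in total RNA, and both were higher in translational efficiency (0.41 and 0.44, limma adjusted p = 0.0376 and 0.0464). Eef2kmt, which methylates eEF2 and is unrelated to Eef2k, fell by 0.53 in total RNA. Mettl13, which methylates the eEF1A N terminus, fell by 0.44 in total RNA and by 0.67 in polyribosomal RNA (limma adjusted p = 0.0220 and 0.00866). Of the mitochondrial elongation factor genes 4 of 5 were lower in total RNA and 3 of 5 in polyribosomal RNA. Tufm, the mitochondrial counterpart of eEF1A, fell by 0.41 and Tsfm, its exchange factor, by 0.62 in total RNA, with Gfm2 and Guf1 at -0.52 and -0.38.

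Among the genes of poly(A)-binding proteins and their partners, 4 of 15 were lower and 2 higher in mut/mut total RNA, and 4 of 14 were lower in polyribosomal RNA. Pabpc4, a close relative of Pabpc1, had 10217 ± 1873 normalized reads in mut/mut and 17511 ± 1748 in wt/wt total RNA (log2 change -0.79 ± 0.13, limma adjusted p = 0.00337). In polyribosomal RNA Pabpc4 had 9800 ± 2323 against 21020 ± 3880 (log2 change -1.11 ± 0.18, limma adjusted p = 0.00319). Gspt1, the termination factor eRF3a that binds Pabpc1 protein, fell by 0.55 in total and by 0.59 in polyribosomal RNA. Tob1 and Tob2, which link poly(A)-binding protein to deadenylation, were higher in total RNA (0.32 and 0.45, limma adjusted p = 0.0144 and 0.0152) and lower in translational efficiency (-0.41 and -0.75, limma adjusted p = 0.0417 and 0.00614). Larp1, a TOP mRNA binding protein gene named after its values were seen, was lower in translational efficiency at -0.56 (limma adjusted p = 0.0151).

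The list of eEF2 kinase control holds AMPK, S6 kinase, PP2A and mTORC1 genes among its 16 tested genes, and 1 of them was higher in mut/mut total RNA. This was Tsc1, which encodes the partner of tuberin, at 0.29 ± 0.10 (limma adjusted p = 0.0426). Rps6kb1, the S6 kinase gene, and Prkaa1, an AMPK subunit gene, did not pass, at -0.28 and -0.23 (limma adjusted p = 0.0629 and 0.0530). Rptor, the mTORC1 scaffold gene named after its values were seen, was lower in translational efficiency at -0.69 (limma adjusted p = 0.00728).

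The multisynthetase complex, of which the Eef1e1 product is a part, had 9 of 10 other genes lower in mut/mut total RNA and 3 of 10 in polyribosomal RNA. The scaffold genes Aimp1 and Aimp2 fell by 0.46 and 0.74 in total RNA. The methionyl-tRNA synthetase gene Mars had 8138 ± 1221 normalized reads in mut/mut and 13250 ± 1055 in wt/wt total RNA (log2 change -0.71 ± 0.11, limma adjusted p = 0.00308) and fell by 0.79 in polyribosomal RNA. The arginyl-tRNA synthetase gene Rars fell by 0.57 in total RNA, while its polyribosomal change was -0.02, and its translational efficiency was higher at 0.56 ± 0.15 (limma adjusted p = 0.0229). Vars, whose valyl-tRNA synthetase product binds the eEF1B complex, was named after its values were seen. It was lower in total RNA at -0.52 (limma adjusted p = 0.0376), in polyribosomal RNA at -1.14 (0.00271) and in translational efficiency at -0.62 (0.00728).

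As a description over the 8 total RNA libraries, the genes whose log2 levels followed each of 4 members most closely were listed among 14966 others. For Eef2 these were Nelfb, Gtpbp6 and Dapk3, with Pearson coefficients of 0.945, 0.936 and 0.932. For Eef1a1 they were Arl8b, Fam96b and Mrrf (0.965, 0.965 and 0.961), for Pabpc1 Noa1, Jade3 and Cenpv (0.992, 0.992 and 0.991), and for Eef2k they included Wdr59 and 6820408C15Rik (0.987 and 0.978). The libraries share genotype and depth differences, and over the 8 polyribosomal libraries the coefficients were 0.332, 0.172 and 0.10 for the Eef2 trio, 0.898, -0.770 and 0.753 for that of Eef1a1, 0.759, 0.975 and 0.753 for that of Pabpc1, and 0.879 and 0.411 for the pair of Eef2k, so some of these likenesses did not hold there.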

How the data were processed

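V-SVZ NSC cultures of both genotypes were profiled as total and polyribosomal polyadenylated RNA (16 libraries, paired ends, a kit that does not mark strand). Per the submitters' processing notes and the study's methods, STAR alignment to mm10 followed read trimming, and DESeq2 gave the normalization. Which counter and annotation were used is not given in the sources used here. The deposited values are a signal, namely reads per gene divided by normalization factors, in separate tables for total and polyribosomal RNA. Of 24972 rows, 26 whose names had become dates were left out. The value of 1 read differed between genes, so whole reads were not recovered and no count model was used. Column totals divided by the commonest step of low values gave the depth estimate, which is rough for the same reason.

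Tests used log2(value + 1) and limma 3.58.1 (R 4.3.3), with variance trend, robust moderation and Benjamini-Hochberg adjustment over all genes with a mean of at least 10 (threshold 0.05). Changes are on the log2(value + 1) scale, mutant minus wild type, and ± beside a log2 change is its SE. Total and polyribosomal RNA were fitted by genotype over 8 libraries each, which share no library. Translational efficiency was the interaction of genotype and fraction over 16 libraries with culture as a block, since both libraries of a culture carry 1 number in the descriptions and their deviations from the group means correlated at 0.233 to 0.731. Members and lists were chosen with earlier results of these data known. All 8 members were named, and of each related list up to 4 genes by smallest p in total RNA; exceptions are stated in the text, and a few genes chosen this way are not reported here. The fits were checked on simulated data. Gene positions and promoters are from RefSeq (GRCm38.p6, the same build as mm10), and levels per kb use the median length of GENCODE M21 basic protein-coding transcripts, since isoforms were not quantified. Alternatives were other pseudocounts (0.5 and 10), filters, scalings, moderation, blocks, Y-linked level as a covariate, and leaving out cultures.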

Additional observations from a re-analysis of the deposited data

Results flagged for a closer look

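Eef1a1 in total RNA of mut/mut culture 2 (561983 normalized reads) lay far below the other 3 mut/mut cultures, which had 622623, 634292 and 628704. The gap to the nearest culture was 0.839 of the group's range, above Dixon's 95% critical value for 4 samples. This was 1 of 48 groups of 4 checked over the 8 members, and chance flags about 1 in 20. Without this culture the fall of Eef1a1 kept its call.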

How the results depend on the processing

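With pseudocounts of 0.5 and 10 and a minimum mean of 100 the calls of all members were as reported. Column-total scaling moved the median of all genes to 0.11 in total and 0.13 in polyribosomal RNA. Under it, related genes called in polyribosomal RNA were 13 in place of 21, as under quantile normalization (13). Without a filter, related genes called in translational efficiency were 6 in place of 10.

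With Y-linked level added to the fit, members called were 4 in total RNA, 0 in polyribosomal RNA (6 at an unadjusted p under 0.05) and 0 in translational efficiency (2 unadjusted), and related genes 12, 0 and 0, when over all genes 1063, 30 and 0 were called, so genotype and that level could hardly be separated. Without mut/mut cultures 1 and 3, related genes called were 23, 6 and 0, and members called in translational efficiency 0 (3 unadjusted). Without mut/mut cultures 2 and 4, 3 members were called in translational efficiency (Eef2, Eef1a1 and Eef1b2) and all 8 in polyribosomal RNA (7 lower, and Eef2k higher at 0.41). Without trend and robust moderation, or with no replicate block, translational efficiency had 0 members (3 and 1 unadjusted) and 0 related genes.

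Same-numbered mut/mut and wt/wt cultures share only a number (correlations of -0.13 to 0.13). With it as a replicate block, 6 members were called in total RNA (Eef2k lost, limma adjusted p = 0.0517) and 6 in polyribosomal RNA, with 35 and 16 related genes.

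Leaving out 1 culture gave 6 to 7 members in total, 5 to 6 in polyribosomal RNA and 1 to 2 in translational efficiency, and 32 to 45, 11 to 22 and 3 to 12 related genes. The low ends for related genes in polyribosomal RNA came without wt/wt culture 2 or 3 (11) and in translational efficiency without mut/mut culture 1 (3). Directions reversed for values not called as reported, namely Eef2k in polyribosomal RNA (-0.11), Eef1a1 (0.030) and Pabpc1 (0.10) in translational efficiency without mut/mut cultures 1 and 3, and Pabpc1 in translational efficiency over single left-out cultures (-0.21 to 0.040, the highest without wt/wt culture 1). As uncentred ratios of shares, polyribosomal to total ratios became -0.49 for Eef1a1 and -0.12 for Eef1e1 in mut/mut, and -0.33 for Eef1a1, -0.41 for Eef1b2 and -0.38 for Eef1e1 in wt/wt. The cause of these shifts was not tested, apart from the missing centring. Depth limits low genes only, and the spread between 4 cultures limits the members.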
